A study of Bos taurus with 12 samples.

Results

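The 6 cumulus cell libraries of the study, of 12 libraries in all, fell into 2 sets of 3 by the sum of their estimated counts. The paper had excluded further cumulus samples for low exonic read counts, so the 6 are those that passed that cut. L replicates 1 and 2 and M/G replicate 3 summed to under 9500000, and L replicate 3 and M/G replicates 1 and 2 to over 9500000. The sets are called the lower-total and the higher-total libraries here. They were chosen by the totals and by the number of transcripts detected, so the differences between them are descriptions and carry no test. Each body condition group had libraries in both sets, with 2 L and 1 M/G library in the lower-total set and 1 L and 2 M/G libraries in the higher-total set.

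The cells came from multiparous lactating Holstein cows on 1 dairy farm, synchronized with Double Ovsynch and fed the same mixed ration. The L group had lost body condition by 27 to 33 DIM on a 5-point scale, and the M/G group had maintained or gained it. Each library holds the cumulus cells stripped from a single oocyte of the preovulatory follicle, collected by ovum pickup, and the 6 libraries came from 6 cows. The libraries were made with the NuGEN Universal RNA-Seq with NuQuant kit. Cumulus cells are the somatic cells that surround the oocyte in the follicle, exchange metabolites and signals with it through gap junctions, and expand around it before ovulation. They are few per complex, so the RNA going into a library is small and is amplified. Library complexity is the number of different RNA molecules that such a library represents, and reads of amplified copies raise the total without adding molecules. The group in the title of each record was used, since the condition field of the same records names the other group for all 12 libraries. The tables list transcripts by Ensembl identifier, and 0 of the 38030 identifiers could be paired with a gene symbol here, so levels are given for transcripts and the cell type could not be checked against marker genes.

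The lower-total libraries held more transcripts than the higher-total ones. L replicate 1 had 6397423 estimated counts on 16741 transcripts with a count above 0. L replicate 2 had 6549714 on 21413, and M/G replicate 3 had 8822935 on 23442. The libraries with the larger sums, L replicate 3 and M/G replicates 1 and 2, had 10522870, 11795120 and 11879885 counts on 15330, 14491 and 15191 transcripts. The number detected was 20532 ± 3436 (SD, n = 3) in the lower-total and 15004 ± 450 (SD, n = 3) in the higher-total set. The sets did not overlap, but L replicate 1 lay nearer to the higher-total libraries than to the other 2 of its own set. M/G replicate 3 and L replicate 3 were the libraries nearest to the limit between the sets. In a bulk library of this kind, fewer cells and less RNA per cell cannot be told apart. Between the body condition groups the same number was 17828 ± 3184 in the L and 17708 ± 4978 in the M/G group (SD, n = 3 each), so the groups differed by less than the spread within them.

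The order of the sets was the same at equal totals. When the counts, rounded to whole numbers, were thinned to the smallest total of 6397424, the lower-total libraries had 16001, 20486 and 22366 transcripts (L replicates 1 and 2, M/G replicate 3; means of 10 draws). L replicate 3 and M/G replicates 1 and 2 had 14248, 13285 and 14061. Thinning moved the higher-total libraries little, since without it they had 14702, 13843 and 14523 by rounded counts. At 50000 counts per library the lower-total libraries already held 8707 to 9838 transcripts and the others 6132 to 7737. Between 1000000 counts and the full thinned depth, M/G replicate 1 went from 11870 to 13295 transcripts and M/G replicate 3 from 19508 to 22387. At 1000000 counts the lower-total libraries held 14775 to 19508 transcripts, more than any higher-total library held at the full thinned depth.

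**Figure D1:**
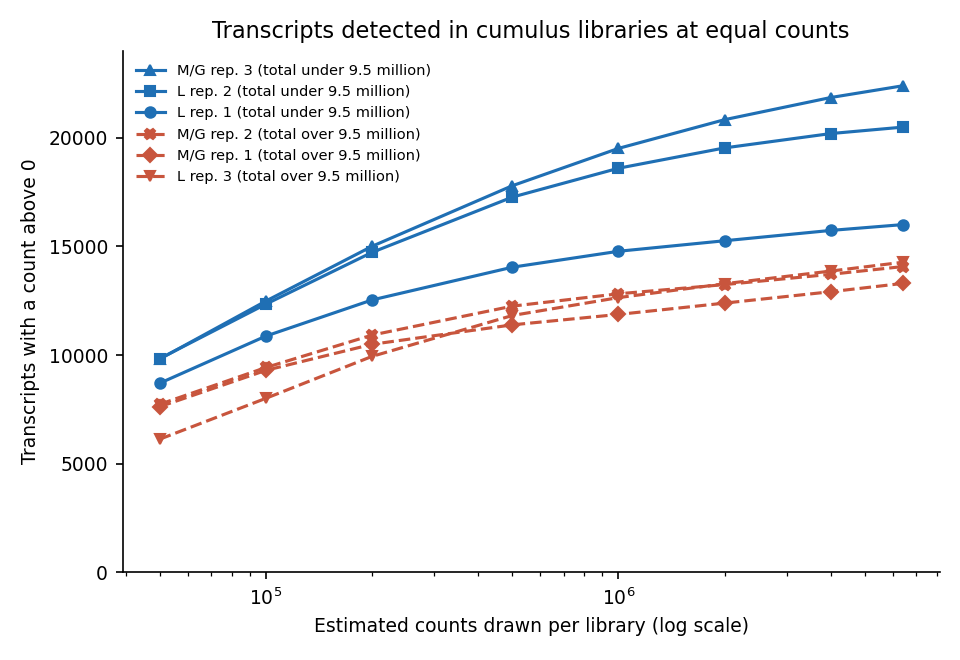
Transcripts with a count above 0 (vertical axis) against the number of estimated counts drawn from each cumulus library (horizontal axis, log scale), with 1 draw per point. Solid blue lines are the 3 libraries with totals under 9500000 and dashed red lines the 3 over it; at the smallest total, 6397424 counts, the blue lines end between 16001 and 22387 and the red lines between 13295 and 14269.

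Counts were also spread more evenly over transcripts in the lower-total libraries. The 10 highest transcripts of a library took 15.4, 11.1 and 10.1% of the counts in L replicates 1 and 2 and M/G replicate 3. They took 54.3, 19.0 and 20.8% in L replicate 3 and M/G replicates 1 and 2. The sets did not overlap, and L replicate 3 stood far above the other 5 libraries, with a 95% Wilson interval of 54.27 to 54.33% that covers counting error only. The difference between the set means was −19.2 percentage points (lower-total minus higher-total), and −7.70 without L replicate 3. The effective number of transcripts, the exponential of the Shannon entropy of the counts, was 2544, 3548 and 3628 in the lower-total libraries. It was 237, 1912 and 1710 in the higher-total libraries, again without overlap. The 10 leading transcripts of L replicate 3 were 528 to 1821 nucleotides long, and each took between 1.99 and 3.38 times the share that it took in the next highest library. These same 10 transcripts took 8.09 to 14.7% of the lower-total libraries and 17.2 and 19.5% of M/G replicates 1 and 2.

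The higher-total libraries also differed in how counts were distributed over transcripts. Among transcripts with 4 to 303 counts, put into bins of 15 counts, no bin of L replicates 1 and 2 and M/G replicate 3 rose to 1.2 times an earlier low. In L replicate 3 the number dropped to 875 transcripts at 19 to 33 counts and then climbed to 1233 at 49 to 63 counts. In M/G replicate 1 it dropped to 258 at 49 to 63 counts and climbed to 420 at 124 to 138 counts, and in M/G replicate 2 it dropped to 438 at 34 to 48 and climbed to 645 at 64 to 78. All 3 higher-total libraries therefore had a separate peak at moderate counts, and its position differed between them. The bins and the limit of 1.2 times were chosen after the data were seen. With bins of 10 counts, L replicate 1 also had a peak, at 24 to 33 counts and 1.28 times its low, while L replicate 2 and M/G replicate 3 had none. Transcripts over 3 counts in 1 cumulus library alone had a median of 30.5, 11 and 11.4 counts in L replicates 1 and 2 and M/G replicate 3. Where L replicate 3, M/G replicate 1 or M/G replicate 2 was the only library, the median was 46, 98 and 70.0 counts. Scaled to the library totals, which chose the sets, these medians were 4.77, 1.68 and 1.29 CPM in the lower-total and 4.37, 8.31 and 5.89 CPM in the higher-total libraries. The counts did not overlap between the sets, but the scaled values did, with L replicate 1 above L replicate 3.

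**Figure D2:**
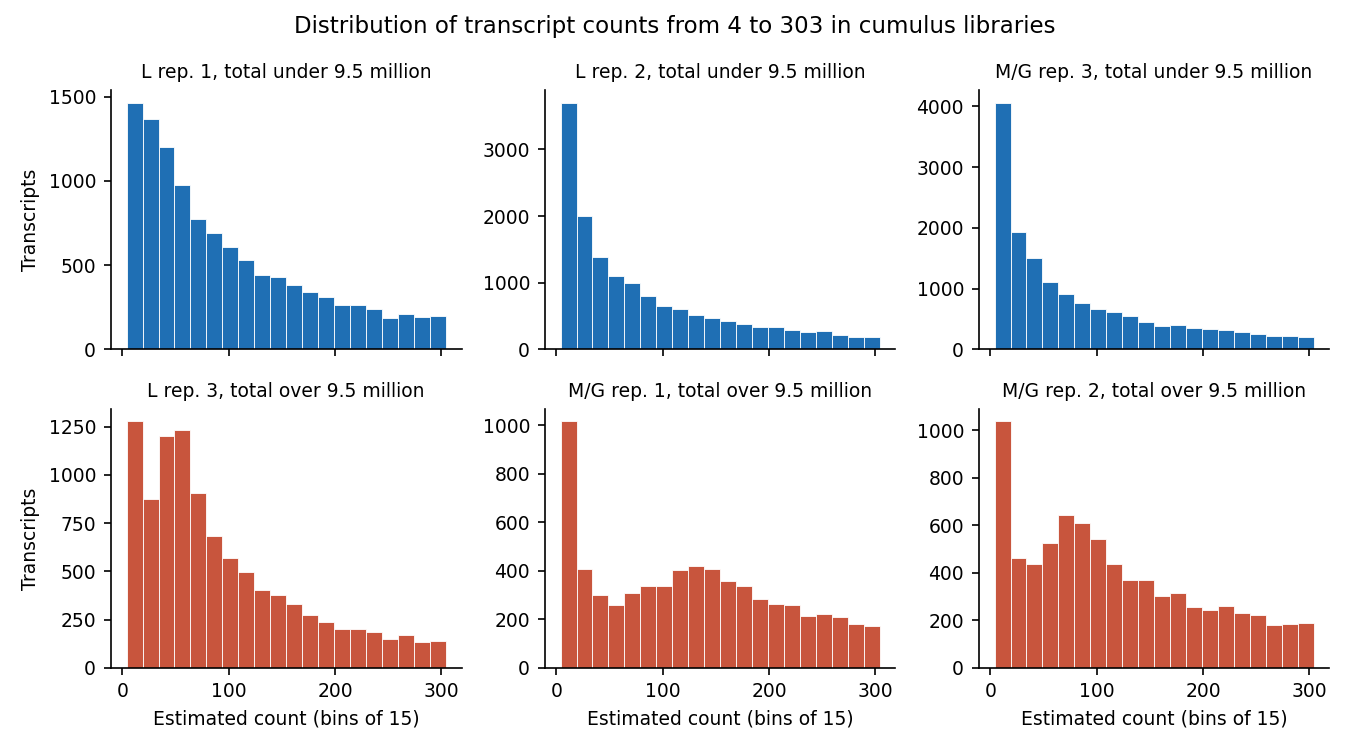
Number of transcripts (vertical axis, scaled to each panel) by estimated count in bins of 15 from 4 to 303 (horizontal axis), 1 panel per cumulus library. The 3 blue panels, libraries with totals under 9500000, have no second peak, and the 3 red panels show a second peak, at 49 to 63 counts in L replicate 3, 124 to 138 in M/G replicate 1 and 64 to 78 in M/G replicate 2.

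Transcripts at a moderate level elsewhere were missing more often from the higher-total libraries. Transcripts were classed by their mean CPM (counts scaled to the library total) in the other 5 cumulus libraries. In the class of 10 to 20 CPM, L replicates 1 and 2 and M/G replicate 3 had a count of 0 for 16.7, 7.89 and 6.67% of the transcripts. L replicate 3 and M/G replicates 1 and 2 had 0 for 31.2, 28.1 and 24.3%. At over 100 CPM the share was 0.340 to 0.740% in the lower-total and 1.59 to 3.30% in the higher-total libraries. The sets did not overlap in any class from 1 CPM up, and below 1 CPM L replicate 1, at 78.9%, exceeded L replicate 3, at 76.7%. The limit of detection of 3 counts corresponded to 0.253 to 0.469 CPM and was lower in the higher-total libraries than in the lower-total ones.

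The same transcripts were also classed by their level in the oocyte libraries. Only the classes come from the oocytes, and the transcripts at 0 are the complement of the detection that chose the sets, so the values are a description. Classed by the mean TPM (abundance scaled for transcript length and library total) over the 6 oocyte libraries, transcripts at 10 to 20 TPM were at 0 in 29.9, 17.2 and 15.1% of cases in L replicates 1 and 2 and M/G replicate 3. They were at 0 in 38.6, 38.8 and 35.4% in L replicate 3 and M/G replicates 1 and 2. The shares did not overlap between the sets in any of the 8 classes. Below 1 TPM they came closest, at 68.2% in L replicate 1 and 68.7% in L replicate 3.

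**Figure D3:**
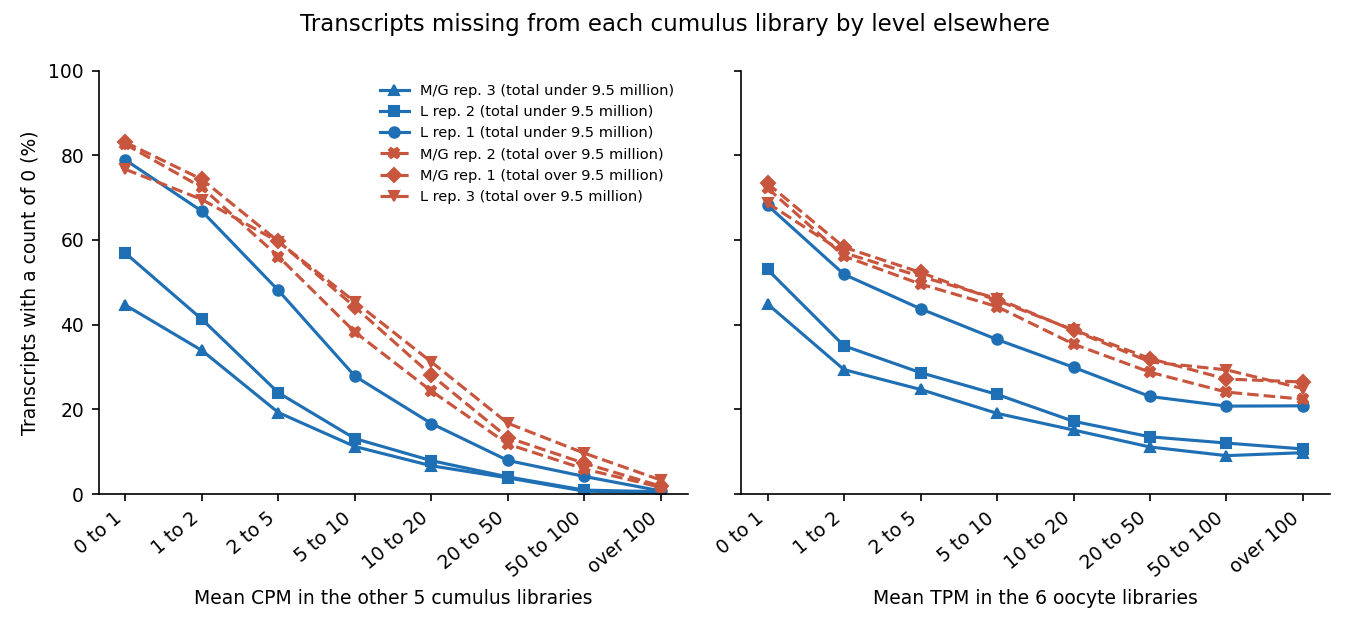
Share of transcripts with a count of 0 in each cumulus library (vertical axis, percent) by class of mean CPM over the other 5 cumulus libraries (left) or of mean TPM over the 6 oocyte libraries (right). Solid blue lines are libraries with totals under 9500000 and dashed red lines those over it; in the class of 10 to 20 the blue points lie between 6.67 and 16.7% on the left and 15.1 and 29.9% on the right, and the red points between 24.3 and 31.2% and between 35.4 and 38.8%.

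Transcripts found throughout 1 set were then looked for in the other. Of the 12425 transcripts with over 3 counts in all 3 lower-total libraries, 54.2% were also over 3 counts in all 3 higher-total libraries, 21.2% in 2 of them, 14.9% in 1 and 9.75% in none. In the other direction, 88.5% of the 7613 transcripts found in all 3 higher-total libraries were found in all 3 lower-total ones. Both shares count the same 6740 transcripts, and they differ because the lists differ in size, which the choice of the sets fixed. Pearson's r of log2(FPKM + 1), across transcripts that are not independent replicates, was 0.744 to 0.863 for the 3 pairs within the lower-total set. It was 0.621 to 0.660 for the 3 pairs within the higher-total set and 0.585 to 0.688 for the 9 pairs with 1 library of each. Pairs within the higher-total set lay inside the range of the pairs between sets. The highest r joined an L and an M/G library, L replicate 2 and M/G replicate 3.

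The spread between libraries of a set was also read by level. For transcripts with a mean of 10 to 20 CPM over the 6 libraries, the median SD of log2(CPM + 1) was 0.67 within the lower-total set and 1.77 within the higher-total set (n = 3 libraries each). Above 100 CPM the medians were 0.30 and 0.77. Below 2 CPM the spread cannot be compared, since 69.5 to 83.0% of the transcripts in these classes were at 0 in the higher-total libraries, classed by the other 5 libraries. Zeros also enter the spread at higher levels. Classed in this way, 56.1 to 59.6% were at 0 in the higher-total libraries at 2 to 5 CPM, 24.3 to 31.2% at 10 to 20 CPM and 1.59 to 3.30% above 100 CPM. The part of these zeros in the spread was not tested.

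**Figure D4:**
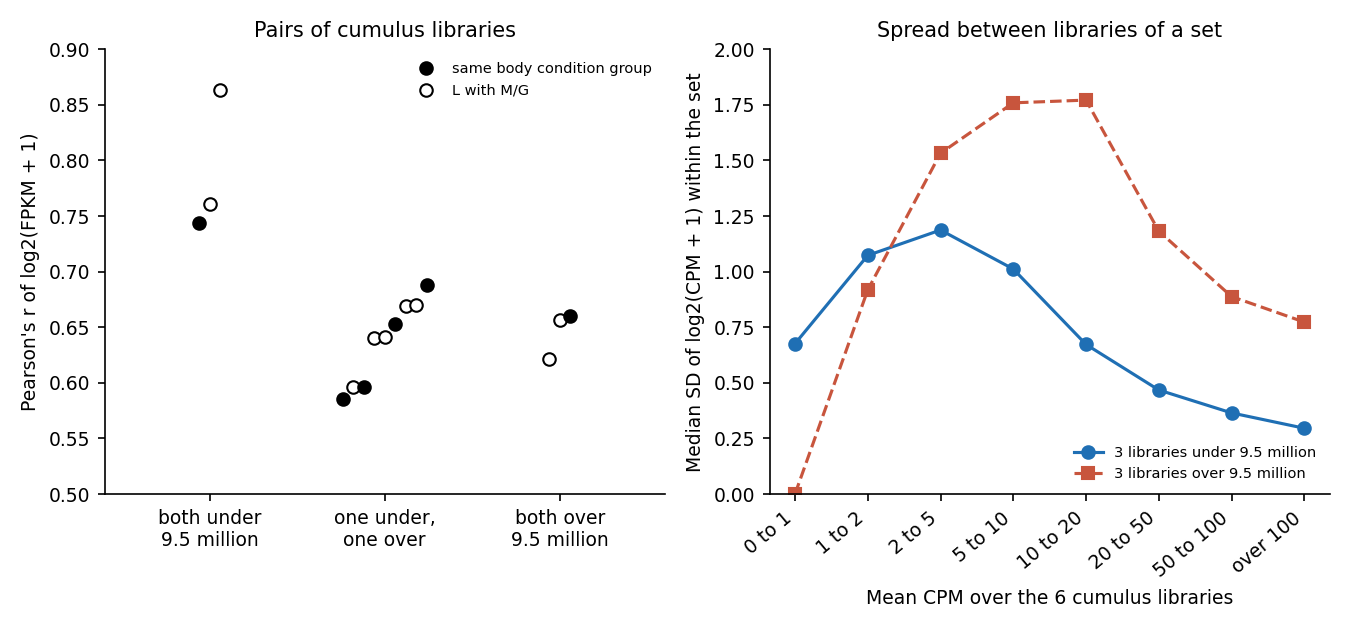
Left, Pearson's r of log2(FPKM + 1) for the 15 pairs of cumulus libraries, by whether both, 1 or none had a total under 9500000 (filled circles, same body condition group; open circles, L with M/G). Right, median SD of log2(CPM + 1) between the 3 libraries of a set by class of mean CPM; from 2 CPM up the higher-total libraries (red) spread more, with 1.77 against 0.67 at 10 to 20 CPM.

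Single transcripts were compared among the 23699 with FPKM over 1 in at least 1 cumulus library. A transcript was counted as separating the sets when its 3 and 3 CPM values did not overlap and the means of log2(CPM + 1) differed by at least 1. By this rule 3961 transcripts (16.7% of those compared) were higher in the lower-total libraries and 466 (1.97%) in the higher-total libraries. The same rule applied to the L and M/G groups gave 826 transcripts (3.49%), 357 higher in the L and 469 in the M/G group. Each group holds libraries of both sets, so the 3.49% is not a like background. The median difference over all compared transcripts was itself −0.72 (higher-total minus lower-total, log2 scale), and −0.45 when libraries were scaled by TMM (edgeR's trimmed mean of M-values). With TMM the counts were 2967 and 908, so that the lower-total libraries held the higher values in 76.6% of the separating transcripts, against 89.5% on plain CPM. On TPM the counts were 4961 and 244, so the scaling moved the split in either direction. All 2967 were among the 3961, and all 466 among the 908. Without L replicate 1 the count higher in the lower-total set was 6673, and without L replicate 3, M/G replicate 1 or M/G replicate 2 the count in the other direction was 1182, 996 or 961. Fewer libraries make an overlap less likely by construction.

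The transcripts that separated the sets were also counted by level. The share of transcripts higher in the lower-total libraries was 2.75% below 1 CPM, 11.4% at 1 to 2 CPM and 22.6% at 10 to 20 CPM, and stayed at 19.8% above 100 CPM. The share higher in the higher-total libraries was 0.0612% below 1 CPM and 4.18% above 100 CPM. The difference of at least 1 on log2(CPM + 1) is hard to reach at the lowest levels, so the shares below 1 CPM are limited by the rule itself. Among the 6737 compared transcripts with over 3 counts in all 6 libraries, 1161 were higher in the lower-total and 189 in the higher-total set on plain CPM. The median difference over these 6737 was −0.52 on CPM and −0.07 with TMM (higher-total minus lower-total, log2 scale). Of the 3961 transcripts, 1497 (37.8%) had at most 3 counts in every higher-total library, and of the 466, 119 (25.5%) had at most 3 in every lower-total library. Most of both lists had over 3 counts in at least 1 library of the other set.

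Detection in 1 set alone was lopsided, in the direction that the choice of the sets by the number detected had fixed. Of all 38030 transcripts, 1211 (3.18%) had over 3 counts in all 3 lower-total libraries and at most 3 in all 3 others, and 80 (0.21%) had the reverse pattern. For the L and M/G groups these numbers were 56 (0.147%) and 67 (0.176%). Each group holds libraries of both sets, so these are not a like background. After thinning to the smallest total they were 1290 and 74 for the sets. Without L replicate 1 the first number was 3226 and without M/G replicate 2 it was 1986, while the second lay between 134 and 215 with any 1 of the 6 libraries left out. The 1211 transcripts had median levels of 3.36, 4.16 and 3.54 TPM in L replicates 1 and 2 and M/G replicate 3. The 80 had medians of 2.27, 6.68 and 4.58 TPM in L replicate 3 and M/G replicates 1 and 2.

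Transcripts higher in the lower-total libraries were longer than those higher in the higher-total libraries, with medians of 2269 nucleotides (quartiles 1491 and 3319) and 1941 (1216 and 3277). The median was 2124 for all compared, which include transcripts barely detected. It was 2359 for the 6740 transcripts with over 3 counts in all 6 libraries, so the first list was not long among well-detected transcripts. The difference between these medians was 328 nucleotides, and was 177, 190, 218 and 204.5 without L replicate 1, L replicate 3, M/G replicate 1 or M/G replicate 2. Among transcripts up to 500 nucleotides, 8.02% were higher in the lower-total and 2.56% in the higher-total libraries. From above 2000 to 4000 nucleotides the shares were 18.1 and 1.62%, and above 8000 they were 21.9 and 3.69%. The transcripts detected in 1 set alone had medians of 2091 nucleotides for the 1211 found in the lower-total set and 2098 for the 80.

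Detection differed at every length. From above 2000 to 4000 nucleotides, L replicates 1 and 2 and M/G replicate 3 had over 3 counts for 44.9, 57.7 and 62.8% of the transcripts. L replicate 3 and M/G replicates 1 and 2 had over 3 counts for 39.4, 37.3 and 40.2%. Up to 500 nucleotides the sets came closest, at 20.3% in L replicate 1 and 19.5% in L replicate 3. The mean transcript length behind a count was 2968, 3127 and 3116 nucleotides in the lower-total libraries and 1970, 2777 and 2822 in the higher-total ones, with L replicate 3 far below the rest. The median length of the transcripts with over 3 counts, each taken once, went the other way, with 2259, 2245 and 2253.5 nucleotides in the lower-total and 2286, 2281 and 2280 in the higher-total libraries. With the 14 dominant transcripts (the union of the 10 highest of each cumulus library) taken out, the mean length behind a count was 3210, 3245 and 3233 nucleotides in the lower-total and 2811, 3103 and 3140 in the higher-total libraries. The sets still did not overlap, but all 6 libraries lay closer together. Transcripts from above 1000 to 2000 nucleotides then held 25.3 to 26.3% of the counts in all 6. Transcripts up to 500 nucleotides held 11.4% in L replicate 3 and 2.92 to 4.86% in the other 5, while above 500 to 1000 nucleotides L replicate 3 was the lowest, at 6.69% against 7.13 to 8.04%.

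**Figure D5:**
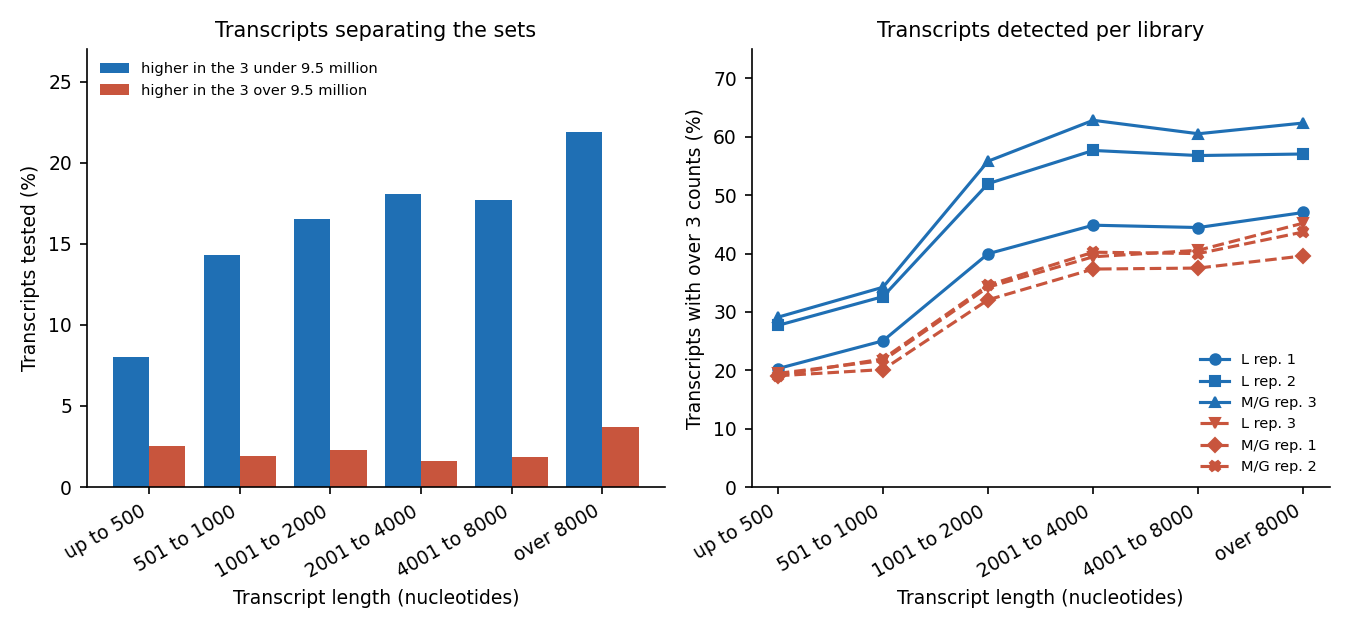
Left, share of compared transcripts that separate the sets (percent) by transcript length, blue where the 3 libraries under 9500000 were higher and red where the 3 over it were; the blue bars range from 8.02% up to 500 nucleotides to 21.9% over 8000. Right, share of transcripts with over 3 counts in each cumulus library by length; from above 2000 to 4000 nucleotides the blue solid lines lie between 44.9 and 62.8% and the red dashed lines between 37.3 and 40.2%.

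A few transcripts show how far the sets could differ. ENSBTAT00000084251.1 (3972 nucleotides) had 443, 623 and 790 estimated counts in L replicates 1 and 2 and M/G replicate 3, or 69.3, 95.1 and 89.6 CPM. In L replicate 3 and M/G replicates 1 and 2 it had 3.49, 3.56 and 21.8 counts, or 0.33, 0.30 and 1.83 CPM. It had the widest gap between the sets among transcripts over 3 counts in all 6 libraries. Its level in the oocyte libraries was 0.297 to 6.81 TPM. ENSBTAT00000078208.1 (228 nucleotides) had 109, 227 and 152 counts in the lower-total libraries and 0 in the others, at least 59.7-fold higher than 3 counts in any of those. In the oocyte libraries it was listed at 93.1 TPM in L replicate 3 and at 0 in the rest.

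In the opposite direction, ENSBTAT00000030941.5 (1863 nucleotides) had 418, 489 and 677 CPM in L replicate 3 and M/G replicates 1 and 2. It had 50.2, 1.78 and 3.97 CPM in L replicates 1 and 2 and M/G replicate 3, so L replicate 1 lay between the rest of its set and the higher-total libraries. Its level in the 6 oocyte libraries was 112 to 236 TPM. ENSBTAT00000051986.2 (393 nucleotides) had 10717, 13890 and 16945 counts in the higher-total libraries and 0 in each lower-total library, at least 2172-fold higher than 3 counts in any of those. In the oocyte libraries it was listed at 0 in L replicate 2 and at 127 to 409 TPM in the other 5. Where transcripts share sequence, Kallisto divides their reads by estimation, so these single values are uncertain.

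The transcripts that separated the cumulus sets were also looked up in the oocytes. Of the 3961 transcripts higher in the lower-total cumulus libraries, 44.5% had over 3 counts in all 6 oocyte libraries, with a median of 8.24 TPM. Of the 466 in the other direction, 32.4% did, with a median of 5.88 TPM, and of all 23699 compared, 34.2%, with a median of 4.84 TPM. Of the 6740 transcripts with over 3 counts in all 6 cumulus libraries, 70.4% did, with a median of 19.4 TPM. Few transcripts below 1 CPM met the rule for separating, so all compared are not a background of like level. The 1211 transcripts found only in the lower-total set were in all 6 oocytes in 22.6% of cases, with a median of 3.80 TPM, and the 80 found only in the higher-total set in 12.5%, with 3.17 TPM.

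Because the sets crossed the body condition groups, L and M/G cumulus cells could be compared within them. With the set as a term in edgeR's quasi-likelihood test, 0 of 23699 transcripts (0%) had a Benjamini-Hochberg adjusted p-value under 0.05 between the L and M/G groups, and the smallest adjusted p-value was 0.290. Without the term the number was also 0 (0%), with a smallest adjusted p-value of 0.386. The unadjusted p-value was under 0.05 for 290 transcripts with the term and for 362 without it. Leaving out L replicate 2 or M/G replicate 3 gave 11 or 3 transcripts without the term, and 0 with it. Without the FPKM filter, edgeR called 38 transcripts with the term (26 of them higher in L cows) and 3 when it was dropped. The common biological coefficient of variation that edgeR estimated was 1.60 with the term and 1.86 without it. DESeq2's Wald test gave 1394 transcripts with the term, 625 higher and 769 lower in the L group, against 188 without it, 137 higher and 51 lower. The set was defined from the same counts, DESeq2 and edgeR differ widely here, and with the term 3 residual degrees of freedom remained.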

How the data were processed

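RNA of 12 bovine libraries was sequenced by the authors, who trimmed reads with fastp and ran kallisto 0.44.0 with standard settings against bovine Ensembl cDNA (versions per the submitters' processing notes). The deposited tables give, per library, an estimated count for each of 38030 transcripts, not normalized. Deposited TPM values are scaled for effective length and library total and keep no depth. Counts were summed per library, and FPKM was computed from counts, effective lengths and totals. Transcripts over 1 FPKM in at least 1 cumulus library were compared, on log2(CPM + 1). Detection used a count above 0 or over 3 counts. Thinning used rounded counts, without replacement. Tests used edgeR 4.0.16 (TMM, quasi-likelihood F test, Benjamini-Hochberg) on rounded counts, and DESeq2 1.42.0 as an alternative, in R 4.3.3. The spread is between cows.

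The sets, lists and tests were chosen with earlier results of these data known. With no gene symbols, 2 transcripts per direction were named: the widest gap between sets among transcripts over 3 counts in all 6 libraries, and the highest minimum TPM among those found in 1 set only. Planned marker lists were not analysed here, for want of symbols. A planned fragment length per library was not given, because cumulus effective lengths are not the length minus a constant. Alternatives covered scaling, filters, pseudocount, DESeq2, the replicate number as a block and each library left out, and 0 value columns were left unused. Intervals cover counting error only.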

Additional observations from a re-analysis of the deposited data

Results flagged for a closer look

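Among the 6 cumulus libraries, 8 measures per library were examined for a library far from the other 5, and 2 pointed to L replicate 3. By chance the limit used is passed about 1 time in 20 for each measure taken alone, and 8 were screened. The share held by the 10 highest transcripts was 54.3% there and 10.1 to 20.8% elsewhere. The mean transcript length behind its counts was 1970 nucleotides, against 2777 to 3127 in the others. Its 10 highest transcripts were 528 to 1821 nucleotides long, so the 2 measures are not separate. With the 14 dominant transcripts taken out, the mean length was 2811 nucleotides there and 3103 to 3245 in the others.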

How the results depend on the processing

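The difference in detected transcripts between the sets, its value after thinning, the top-transcript share and the share of missing transcripts kept their direction under each alternative tried. With 1 library left out, chosen after seeing the data, the lower-total minus higher-total difference was 4073 to 7424 transcripts, 4379 to 7562 after thinning, and −25.4 to −7.70 percentage points for the top-transcript share, −7.70 being without L replicate 3. The higher-total minus lower-total difference in missing transcripts at 10 to 20 CPM was 13.6 to 20.9 percentage points. The number of transcripts higher in the higher-total libraries was 908 with TMM and 244 on TPM, against 466. The difference in median length was 234.5 nucleotides with TMM and 467.5 on TPM, against 328. With 1 library left out, the counts ranged from 4235 to 6673 and from 603 to 1182 for transcripts separating the sets, from 1410 to 3226 and from 134 to 215 for those found in 1 set alone, and the length difference from 177 to 257 nucleotides. For L against M/G without the set, edgeR gave 3 transcripts without the FPKM filter and 0 to 11 with 1 library left out, 11 without L replicate 2 and 3 without M/G replicate 3, and DESeq2 gave 188. With the set, the numbers were 38 without the filter, 0 with any library left out and 1394 by DESeq2. The cause of these differences was not tested. With the replicate number as a block, edgeR gave 1 transcript without the set and 0 with it. Same-numbered libraries are from different cows. Their deviations (library minus group mean) correlated at −0.0064, −0.159 and −0.288. Each such pair joins a lower-total with a higher-total library, so these correlations cannot decide whether the numbers pair them. Depth limits what is seen below 0.253 to 0.469 CPM.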

Other observations

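The effective lengths in the tables hold a further difference between the sets. For transcripts over 2000 nucleotides the effective length was the length minus a constant in every oocyte library, but varied by transcript in the cumulus libraries, which kallisto's optional correction for sequence bias would do; the methods name standard settings, and whether it was used is not given in the sources used here. Over 4039 such transcripts with over 3 counts in all 6 cumulus libraries, the ratio of the effective length to the length minus that constant had an SD of 6.85, 6.73 and 10.2% in L replicates 1 and 2 and M/G replicate 3. The SD was 2.18, 3.34 and 2.46% in L replicate 3 and M/G replicates 1 and 2, without overlap.

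By the cow numbers attached to the libraries, 3 of the 6 cows also gave an oocyte library. The cows of the higher-total cumulus libraries L replicate 3 and M/G replicate 2, with 15330 and 15191 transcripts, gave oocyte libraries with 20553 and 21652 transcripts. The cow of the lower-total cumulus library M/G replicate 3, with 23442, gave the oocyte library with the fewest, 15604 of a range up to 21652. That oocyte library also had the smallest total of the 6, 8073221 counts, against 17970492 and 27742506 for the other 2 cows, and the part of depth in its detection was not tested.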
